A study of Rattus norvegicus with 6 samples.

Results

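The receptors and ligands of the VEGF and angiopoietin systems are a group of 10 genes: Kdr, Flt1, Flt4, Nrp1, Tek, Tie1, Ptprb, Angpt1, Angpt2 and Efnb2. They were chosen by gene symbol for their roles, and all 10 were found among the 22835 genes of the deposited count table and passed the filter on low counts. The group holds the receptors of VEGF but none of its ligands, and it takes in ephrin B2, whose receptors belong to another system. Lungs of female rats on the SD background, 12 weeks old, were sequenced, 3 animals per genotype and 6 in all. In the animals called ND1_cKO here, Cre under the Sftpc promoter, which is active in alveolar type 2 cells, released an LSL-DdCBE-ND1 allele encoding a base editor aimed at mitochondrial ND1, a subunit gene of respiratory complex I. Control littermates carried the silent LSL allele per the series description, whereas the sample labels give their genotype as WT. Cre, the active editor and the ND1 change differ between the genotypes together and cannot be told apart, and the vessel genes described below were read in whole lung, not in the targeted cells.

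VEGF ligands act on endothelial cells through receptor tyrosine kinases, of which KDR carries most of the growth and survival signal, FLT1 binds VEGF tightly and also exists as a soluble decoy, and FLT4 serves VEGF-C and VEGF-D, mainly in lymphatic vessels. Angiopoietin 1, made largely by mural and mesenchymal cells, activates the receptor TEK and keeps vessels quiescent, while angiopoietin 2, released by endothelial cells, is a context-dependent antagonist of it. TIE1 is a co-receptor of TEK, and the phosphatase encoded by Ptprb removes phosphate from TEK. In the mouse lung, Kdr is strongest in the capillary cells called aerocytes, and alveolar type 1 cells are a main source of VEGF-A.

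Transcripts of the angiopoietin receptor Tek, of its phosphatase Ptprb, of the VEGF receptor Flt1 and of ephrin B2 were lower in ND1_cKO lungs. Kdr, Nrp1 and Tie1 lay below every control without passing the test, and no difference was detected for Flt4, Angpt1 or Angpt2. Of the 10 genes, 4 fell at an edgeR adjusted p below 0.05: Tek 2.12-fold, Efnb2 1.95-fold, Ptprb 1.86-fold and Flt1 1.58-fold. Over all 16548 genes tested, 1.28% were lower by the same rule. None of the 10 rose (0 by edgeR, 0 at an unadjusted p below 0.05, 0 by DESeq2 and 0 by limma-voom). Of all genes, 1.14% were higher by edgeR, 11.1% at an unadjusted p below 0.05 and 5.92% by DESeq2. With 10 genes, a count of 0 cannot be told from these shares. In 7 of the 10 every ND1_cKO library lay below every control library, which held for 14.1% of all genes. Log2 fold changes (ND1_cKO over control) were negative in 9 of 10 with a median of -0.56, beside 48.1% negative and a median of 0.01 over all genes tested. DESeq2 called 7 of the 10 lower, against 5.53% of all genes. By edgeR, only Tek passed the study's own threshold, which adds an absolute log2 fold change above 1. Of all genes, 0.314% were lower by that edgeR rule. By DESeq2, Kdr (log2 -1.11, adjusted p = 0.000373) passed the threshold as well as Tek (-1.09, adjusted p = 4.48e-08). The share of all genes passing that threshold by DESeq2 was not counted, and the 0.314% holds for edgeR alone. The edgeR count of 4 fell to 0 when control replicate 2, control replicate 3 or ND1_cKO replicate 1 was left out. Those fits called 0, 9 and 23 genes in all, and in each of them 7 of the 10 were lower at an unadjusted p below 0.05, against 7.4%, 8% and 8.85% of all genes.

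**Figure D1:**
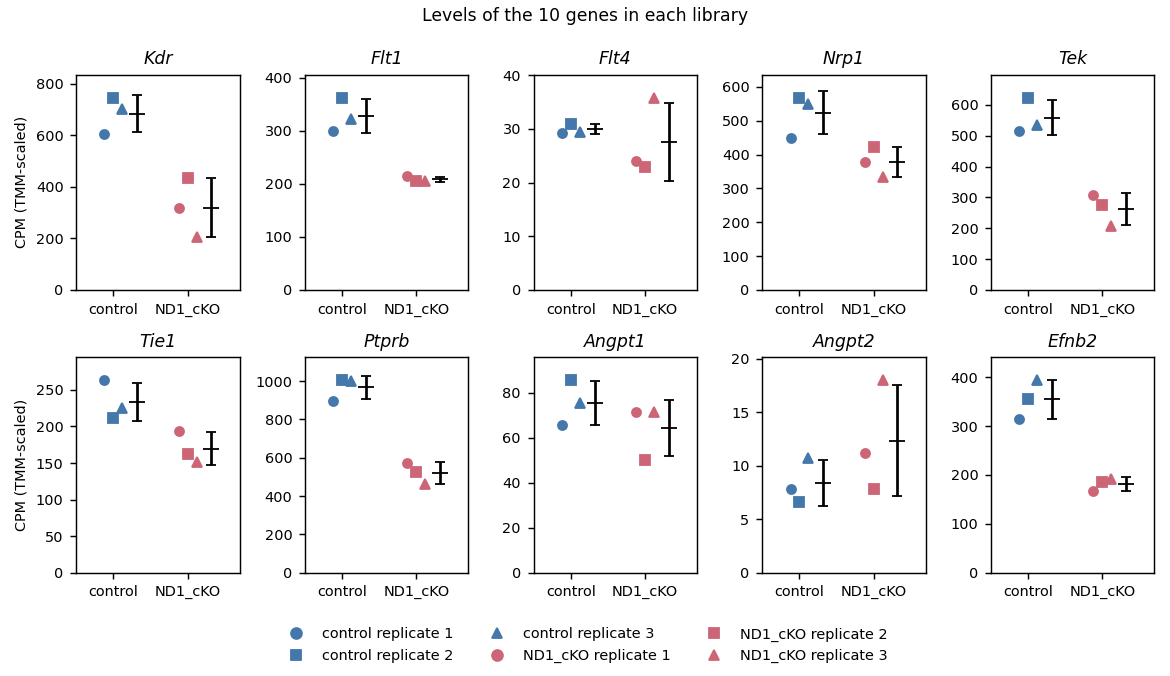
Levels of the 10 genes in CPM (counts per 1000000, scaled by TMM factors), 1 panel per gene, with 1 point per library and the mean ± SD of each genotype (n = 3) as a black bar. In Kdr, Flt1, Nrp1, Tek, Tie1, Ptprb and Efnb2 the ND1_cKO points lie below all control points, and in Flt4, Angpt1 and Angpt2 the genotypes overlap.

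The libraries held between 28669995 and 38303274 counts assigned to genes. ND1_cKO replicate 3 stood farthest from the controls on the first principal component (46.6% of the variance), at 65.2, with ND1_cKO replicates 1 and 2 at 25.3 and 13.7 and controls between -38.3 and -31.1. Transcripts of the targeted gene ND1 were at 2432 to 3083 CPM in controls and 3427 to 3737 CPM in ND1_cKO (log2 0.40 ± 0.12 SE, adjusted p = 0.125), and counts do not show the edit itself. Genes of lung epithelium and endothelium were present in every library, with Sftpc at 5301 to 15473 CPM and Pecam1 at 395 to 622 CPM. In whole lung, fewer endothelial cells and less RNA per endothelial cell cannot be told apart.

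Upstream sequences were available for 6 of the 10 genes in RefSeq's GRCr8 promoter table. The 250 bases before the listed start are given for Flt1 and Efnb2, which fell, for Kdr, the receptor with the largest difference in level, and for Flt4, the VEGF receptor for which none was detected. Capitals mark AGGAAG on either strand, 1 form of the sites read by ETS factors such as ERG. Such sites are common in endothelial promoters, and their other forms were not marked or counted. The windows lie on the plus strand at chr12:12333180-12333429 (Flt1), chr16:87484965-87485214 (Efnb2), chr14:32571813-32572062 (Kdr) and chr10:34414584-34414833 (Flt4).
Flt1: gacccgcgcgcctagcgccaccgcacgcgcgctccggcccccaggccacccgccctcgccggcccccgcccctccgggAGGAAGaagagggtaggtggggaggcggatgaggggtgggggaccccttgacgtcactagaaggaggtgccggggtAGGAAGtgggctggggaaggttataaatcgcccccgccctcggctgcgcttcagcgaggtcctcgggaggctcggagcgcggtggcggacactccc
Efnb2: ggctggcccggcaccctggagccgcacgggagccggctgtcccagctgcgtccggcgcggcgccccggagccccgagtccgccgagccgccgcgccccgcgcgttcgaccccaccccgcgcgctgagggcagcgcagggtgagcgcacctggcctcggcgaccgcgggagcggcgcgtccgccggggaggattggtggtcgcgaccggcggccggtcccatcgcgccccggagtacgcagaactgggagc
Kdr: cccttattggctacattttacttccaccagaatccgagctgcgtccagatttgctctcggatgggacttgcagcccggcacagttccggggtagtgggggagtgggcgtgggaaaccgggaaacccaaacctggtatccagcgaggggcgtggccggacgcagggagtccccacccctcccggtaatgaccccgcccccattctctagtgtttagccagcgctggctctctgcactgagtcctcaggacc
Flt4: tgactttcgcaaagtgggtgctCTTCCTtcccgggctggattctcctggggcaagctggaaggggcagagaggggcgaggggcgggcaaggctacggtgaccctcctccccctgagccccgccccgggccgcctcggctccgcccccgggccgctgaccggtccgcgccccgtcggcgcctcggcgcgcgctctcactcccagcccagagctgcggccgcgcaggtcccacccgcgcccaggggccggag
AGGAAG occurred in 29.5% of all 33469 windows of this length. Flt1 held 2 copies, beginning 172 and 96 bases before the start, Flt4 held 1 at 228 bases and Tie1 1 at 61 bases, while Kdr, Nrp1 and Efnb2 held 0. The Flt1 window also held TGACGTCA, the cyclic AMP response element, 124 bases before the start (1.59% of all windows hold it) and TATAAA 75 bases before it (12.9%), and no copy overlapped another. Neither the forkhead core GTAAACA (3.21% of all windows) nor ACGTG, 1 form of the hypoxia response core (16.6%), was found in any of the 6 windows on either strand. Other forms of the hypoxia response core were not searched for. Efnb2 had the window richest in GC of the 6, at 80.4% with 43 CpG dinucleotides, against medians of 51.2% and 5 over all windows. The other windows were also above both medians, with Flt4 at 76.0% and 28, Flt1 at 73.2% and 27, and Tie1 lowest in CpG at 61.6% and 6. AGGAAG was present both in Flt1, which fell, and in Flt4, which did not pass, and absent from the window of Efnb2, which fell.

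Among the VEGF receptors, Kdr had the largest fold change, and Flt1 had the smallest spread among ND1_cKO animals. Kdr, the main signalling receptor, stood at 605, 746 and 701 CPM in control replicates 1, 2 and 3 and at 317, 433 and 204 CPM in ND1_cKO replicates 1, 2 and 3. The genotypes did not overlap, but the ND1_cKO animals spread widely, with replicate 3 lowest. Its level was 684 ± 71.9 CPM in controls and 318 ± 115 CPM in ND1_cKO (SD, n = 3), a log2 fold change of -1.11 ± 0.26 (SE; 95% interval -1.73 to -0.48) at adjusted p = 0.0766, so it did not pass. It passed in 4 of 15 alternatives (adjusted p from 0.000373 to 0.224), among them DESeq2 and the fits without ND1_cKO replicate 2 or replicate 3. Flt1, the high-affinity VEGF receptor, gave 299.9, 363 and 323 CPM in controls and 214, 206 and 206 CPM in ND1_cKO. All 3 ND1_cKO libraries lay close together and well under the lowest control. Flt1 fell by 0.66 ± 0.09 on the log2 scale (adjusted p = 0.0292, lower in 3 of 3 animals than in any control). The counts are per gene, so the membrane and soluble forms of FLT1 are not separated.

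Flt4, the receptor of VEGF-C and VEGF-D, gave 29.3, 31.0 and 29.5 CPM in controls and 24.0, 22.8 and 35.8 CPM in ND1_cKO. Replicates 1 and 2 of ND1_cKO were under all controls and replicate 3 was above all of them. The log2 fold change was -0.12 ± 0.17 (95% interval -0.53 to 0.29, adjusted p = 0.733). Nrp1, a co-receptor that binds VEGF-A and class 3 semaphorins and is also expressed outside endothelium, gave 450.4, 568 and 550.3 CPM in controls and 378, 424 and 335 CPM in ND1_cKO. The groups did not overlap, yet the gap between control replicate 1 and ND1_cKO replicate 2 was small. Its log2 fold change of -0.47 ± 0.13 had an adjusted p of 0.102, and DESeq2 alone of 15 alternatives called it.

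In the angiopoietin system both the receptor and its phosphatase fell. Tek, the angiopoietin receptor also called TIE2, gave 516, 624 and 536 CPM in controls and 309, 275 and 207 CPM in ND1_cKO. Every ND1_cKO animal was under every control, and replicate 3 was again lowest. Tek fell by 1.08 ± 0.16 on the log2 scale (95% interval -1.46 to -0.71, adjusted p = 0.0311), from 559 ± 57.4 to 264 ± 52.1 CPM. Ptprb, the phosphatase that restrains TEK, gave 897, 1004 and 1002 CPM in controls and 572, 528 and 461 CPM in ND1_cKO. Its groups were far apart relative to their spread, and it fell by 0.89 ± 0.11 (adjusted p = 0.019). Tie1, the co-receptor, stood at 263, 212 and 226 CPM in controls and 194, 163 and 151 CPM in ND1_cKO. The genotypes did not overlap. Its log2 fold change of -0.46 ± 0.13 did not pass (adjusted p = 0.097), except with DESeq2 alone of 15 alternatives.

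The angiopoietin ligands did not pass the test in any of 15 alternatives. Angpt1, the TEK agonist, gave 65.7, 85.5 and 75.3 CPM in controls and 71.4, 50.1 and 71.5 CPM in ND1_cKO. The genotypes overlapped, with ND1_cKO replicate 2 lowest, and the log2 fold change was -0.23 ± 0.16 (95% interval -0.61 to 0.15, adjusted p = 0.456). Angpt2, its antagonist, gave 7.86, 6.59 and 10.7 CPM in controls and 11.2, 7.82 and 18.0 CPM in ND1_cKO, from 244 to 640 counts per library. It was the only 1 of the 10 with a positive log2 fold change, 0.56 ± 0.33 (95% interval -0.21 to 1.33, adjusted p = 0.369). Replicate 3 of ND1_cKO was highest and replicate 2 lay among the controls. Angpt2 overlaps Mcph1 in the RefSeq annotation, and Mcph1 was at 3.17 ± 0.97 CPM in controls and 4.94 ± 0.50 CPM in ND1_cKO (log2 0.64 ± 0.28, adjusted p = 0.238). The strand setting of the counting is not given, so whether any reads passed between Angpt2 and Mcph1 cannot be seen. Annotated noncoding genes also overlap Flt1, Nrp1, Tie1 and Angpt1, and the same limit holds there. The one overlapping Angpt1 was at 6.03 ± 1.41 CPM in controls and 2.60 ± 0.34 CPM in ND1_cKO (log2 -1.21 ± 0.25, adjusted p = 0.0539), and the others did not pass the filter or were not in the table.

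Efnb2, the arterial ephrin ligand that signals to EPHB4 on veins, had the lowest adjusted p of the 10. Its level was 315, 356 and 393 CPM in controls and 166, 185 and 193 CPM in ND1_cKO. Values within each genotype were close, and the highest ND1_cKO library was far under the lowest control. Efnb2 fell by 0.97 ± 0.11 on the log2 scale (95% interval -1.22 to -0.71, adjusted p = 0.0162). Ephb4, its receptor, was at 134 ± 16.6 CPM in controls and 111 ± 16.4 CPM in ND1_cKO (log2 -0.27 ± 0.13, adjusted p = 0.288), with overlapping genotypes.

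Ligands, co-receptors and downstream genes of the same systems were read from a list of 63 symbols picked for their roles. Of these, 62 were in the table and 61 were tested (Figf is an older symbol of Vegfd, and Angpt4 did not pass the filter). edgeR called 5 lower and 0 higher, beside 1.28% and 1.14% of all genes. At an unadjusted p below 0.05 there were 16 lower and 9 higher, against 10.2% and 11.1% of all genes. DESeq2 called 12 lower and 7 higher, against 5.53% and 5.92% of all genes. With limma-voom 5 were lower, against 1.36% of all genes, and 0 higher. The median log2 fold change was -0.14. Leaving out control replicate 2, control replicate 3 or ND1_cKO replicate 1 reduced the 5 to 0, and leaving out control replicate 1 to 3.

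The 5 that fell were Dll4, Notch1, Apln, Rasip1 and Sema3g. Dll4, the VEGF-induced Notch ligand of arteries and sprouting tips, went from 128 ± 16.3 to 50.2 ± 14.9 CPM (log2 -1.35 ± 0.23, adjusted p = 0.0418), and its receptor gene Notch1 from 189 ± 14.1 to 131 ± 5.83 CPM (-0.53 ± 0.08, adjusted p = 0.0357). Apln, the peptide ligand apelin and itself an aerocyte marker, gave 133, 143 and 180.4 CPM in controls and 40.5, 72.5 and 38.8 CPM in ND1_cKO. That difference of -1.59 ± 0.27 (adjusted p = 0.0406) was larger on the log2 scale than any among the 10 genes, in libraries that did not overlap. Rasip1, a Ras-interacting protein needed for vessel lumens, fell by 0.65 ± 0.08 (adjusted p = 0.0198), and Sema3g, an endothelial semaphorin, by 0.97 ± 0.17 (adjusted p = 0.0418).

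The VEGF ligands themselves did not pass. Vegfa, the main ligand of KDR, gave 497, 583 and 656 CPM in controls and 350.1, 450.2 and 287 CPM in ND1_cKO. The genotypes did not overlap, and ND1_cKO replicate 3 was lowest, as it was for Kdr and Tek. The log2 fold change was -0.67 ± 0.18 (adjusted p = 0.0963), and 2 of 15 alternatives called it. Beside it, alveolar type 1 markers summed to 5115 to 6471 CPM in controls and 2869 to 5178 CPM in ND1_cKO. Of these markers edgeR called 0 of 7. At an unadjusted p below 0.05 and by DESeq2, 3 were lower each, against 10.2% and 5.53% of all genes. The part of type 1 markers in the Vegfa value was not tested. Vegfb, whose product binds FLT1 but not KDR, was higher in every ND1_cKO library (18.4 ± 3.62 against 29.1 ± 1.48 CPM, log2 0.66 ± 0.15, adjusted p = 0.0657). Pgf, placental growth factor, which also binds FLT1, was at 1.23 ± 0.48 (adjusted p = 0.202) with overlapping genotypes. Vegfc (-0.20 ± 0.21) and Vegfd (0.75 ± 0.43), the FLT4 ligands, overlapped as well. Foxo1, a transcription factor held inactive by TEK signalling, was lower in every ND1_cKO library (97.5 ± 13.9 against 70.2 ± 2.25 CPM, log2 -0.47 ± 0.11, adjusted p = 0.0733), and 3 of 15 alternatives called it. The genotypes overlapped for the flow-responsive factor gene Klf2 at -0.17 ± 0.36 and the endothelial nitric oxide synthase gene Nos3 at 0.27 ± 0.31. They also overlapped for the co-receptor gene Nrp2 at 0.05 ± 0.10 and Svep1, whose product binds TIE1, at 0.13 ± 0.15.

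**Figure D2:**
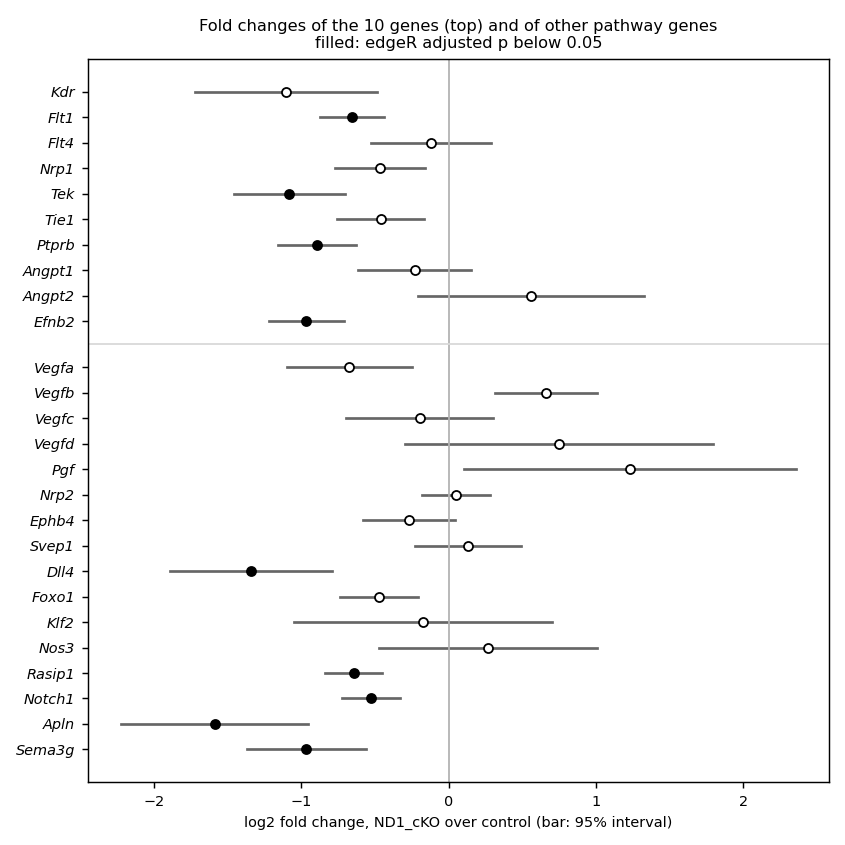
Log2 fold change (ND1_cKO over control, x axis) with its 95% interval for the 10 genes (above the line) and 16 other genes of the pathways (below it). Filled points passed an edgeR adjusted p below 0.05. The filled points all lie left of 0, from Apln at -1.59 to Notch1 at -0.53.

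Endothelial markers that are not among the 10 were lower too. Of 20 tested, 6 fell and 0 rose by edgeR (15 and 0 at an unadjusted p below 0.05, 12 and 0 by DESeq2, 7 and 0 by limma-voom), with a median log2 fold change of -0.51. Their summed level was 5641 to 5997 CPM in controls and 3746 to 4204 CPM in ND1_cKO. Over all genes, edgeR called 1.28% lower and 1.14% higher, and DESeq2 5.53% and 5.92%. At an unadjusted p below 0.05 the shares were 10.2% and 11.1%, and limma-voom called 1.36% lower. The same shares stand beside the counts for the lists below. Cdh5, the endothelial cadherin, fell by 0.63, while Pecam1, which encodes CD31, was at -0.32 without passing. By edgeR, aerocyte markers fell in 2 of 5 (Car4 and Apln), and their sum was 712 to 835 CPM in controls and 386 to 484 CPM in ND1_cKO. At an unadjusted p below 0.05 and by DESeq2, 4 of the 5 were lower each, and by limma-voom 2. Ednrb, which made up 42.5% of that sum, was at -0.98 without passing by edgeR (adjusted p = 0.125). The general capillary list had 0 of 4 called by edgeR (1 lower at an unadjusted p below 0.05 and 1 by DESeq2) and sums of 1290 to 1995 against 748 to 1055 CPM. Plvap made up 58.1% of that sum, and Gpihbp1, Aplnr and Cd93 overlapped between genotypes, as did the aerocyte gene Fibin. By edgeR 0 genes were called in the arterial (6), venous (5), lymphatic (6), pericyte (8), smooth muscle (6), fibroblast (6) and alveolar type 2 (7) lists, and Pf4 alone of 4 platelet genes tested rose. DESeq2 called 1 arterial, 1 venous, 1 lymphatic and 1 type 2 gene lower, and 1 arterial, 3 fibroblast and 2 type 2 genes higher. Counts at an unadjusted p below 0.05 were the same apart from 2 type 2 genes lower, and limma-voom called 0 in these 7 lists. With 5 to 8 genes per list, 1 call cannot be told from the shares over all genes. Of the platelet genes DESeq2 called 1 lower and 2 higher. The arterial sums overlapped (243 to 330 and 214 to 292 CPM), as did those of pericytes (343 to 439 and 289 to 516 CPM) and veins (194 to 229 and 158 to 228 CPM). Lymphatic sums were 802 to 860 and 661 to 723 CPM, of which Pdpn, which alveolar type 1 cells also express, made up 56.8%. Pdpn was at log2 -0.26 with overlapping genotypes, and Lyve1, at -0.87, was lower in every ND1_cKO library. The log2 fold changes of Prox1, Mmrn1, Ccl21 and Reln were positive. Summed levels of the remaining lists were 823 to 1234 and 676 to 1561 CPM for smooth muscle, 888 to 1059 and 1229 to 4683 CPM for fibroblasts, 28060 to 32526 and 20611 to 33220 CPM for alveolar type 2 cells, and 29.1 to 35.4 and 47.0 to 61.0 CPM for platelets. Col1a1 made up 40.9% of the fibroblast sum. Col1a1, Col1a2 and Lum had log2 fold changes of 2.58, 1.65 and 1.34, while Pdgfra, Tcf21 and Dcn were at -0.17, -0.34 and 0.12. Of the listed markers only the platelet gene Ppbp reached 0 (control replicate 3 and ND1_cKO replicate 1). Those taken as defining, among them Cdh5, Car4, Gja5, Prox1, Kcnj8, Ager, Sftpc and Pf4, were detected in every library, Prox1 being lowest at 0.46 to 2.13 CPM. The part of these cell types in the results for the 10 genes was not tested.

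Set against the 20 endothelial markers animal by animal, the 10 genes differed in direction. The measure is the log2 CPM of a gene minus the mean log2 CPM of the markers, and its difference between genotypes was assessed by an exact two-sided permutation test, which cannot go below p = 0.1 with 3 against 3. The markers themselves had log2 fold changes from -1.03 (Clec14a) to 0.03 (Emcn), and Sox18 (-0.87), Ramp2 (-0.85) and Icam2 (-0.83) were also well under their mean. Tek stood at 1.67, 1.95 and 1.62 in controls and 1.38, 1.37 and 0.71 in ND1_cKO, a difference of -0.59. Efnb2 (-0.46) and Ptprb (-0.39) were likewise lower, relative to the markers, in all 3 ND1_cKO animals than in any control. Each of these had a permutation p of 0.1 (0.2 adjusted over the 10 genes), the smallest possible. Kdr shifted by -0.66 (exact permutation p = 0.3), but ND1_cKO replicate 2, at 2.02, lay inside the control range of 1.90 to 2.21. Without ND1_cKO replicate 3 the shifts were -0.32 for Kdr, -0.37 for Tek, -0.25 for Ptprb and 0.20 for Flt4, while Efnb2 stood at -0.45. Flt1 differed from the markers by -0.15 with overlap (exact permutation p = 0.4), and by -0.055 without control replicate 2 and -0.081 without ND1_cKO replicate 3. Tie1 and Nrp1 were both at 0.04 with overlap, and their sign changed in 4 and 2 of 9 alternatives. Flt4 (0.35) and Angpt2 (1.00) were higher relative to the markers in every ND1_cKO animal (exact permutation p = 0.1, adjusted 0.2), and Angpt1 was at 0.26 with overlap. The marker mean itself lay at -0.48, -0.64 and -0.39 in ND1_cKO replicates 1, 2 and 3, relative to the control mean. A gene whose own level stays the same therefore rises on this measure. Neither Flt4 nor Angpt2 passed on its own level, and the share of all genes that separate on this measure was not counted.

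**Figure D3:**
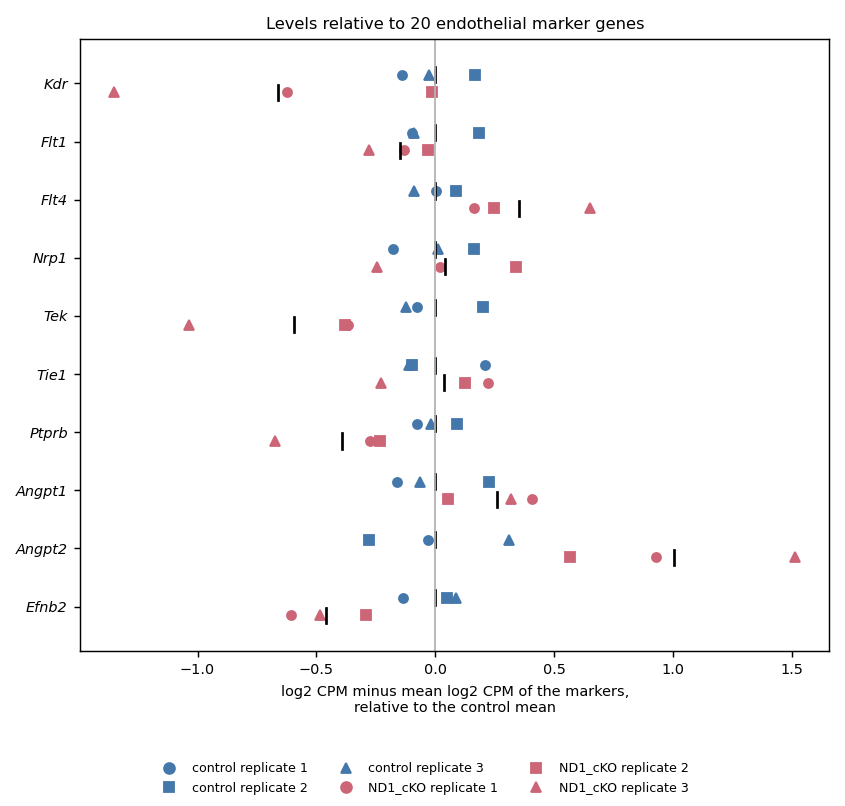
Level of each gene relative to 20 endothelial markers (log2 CPM minus the mean log2 CPM of the markers, x axis, set to 0 at the control mean), with 1 point per library and a short black line at each genotype mean. Tek, Ptprb and Efnb2 lie to the left of all controls in ND1_cKO, Flt4 and Angpt2 to the right, and Kdr spreads from the control range down to ND1_cKO replicate 3.

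Ratios between partner genes were compared in the same way for 8 pairs fixed by role. Gene length cancels in such a comparison between genotypes. Tie1 over Tek was 1.55-fold higher in ND1_cKO (log2 difference 0.63), and the log2 ratio was -0.97, -1.56 and -1.25 in controls and -0.67, -0.75 and -0.45 in ND1_cKO. Nrp1 over Kdr (0.70), Flt4 over Kdr (1.02) and Vegfa over Kdr (0.48) were higher in all 3 ND1_cKO animals. The ratios over Kdr share its lower level and are not independent of each other. Kdr had a log2 fold change of -1.11, and Nrp1 (-0.47) and Vegfa (-0.67) were themselves negative. The share of other gene pairs that separate in this way was not counted. Angpt2 over Angpt1 was 1.67-fold higher (0.74), with control replicate 3 at -2.81 and the nearest ND1_cKO library at -2.67, so the groups only just separated. Efnb2 over Ephb4 was lower in all 3 (-0.69). These 6 pairs had an exact permutation p of 0.1, adjusted to 0.133 over the 8. The other pairs overlapped between genotypes: Flt1 over Kdr (0.52, exact permutation p = 0.3) and Ptprb over Tek (0.20, exact permutation p = 0.2). Without ND1_cKO replicate 3 the differences were 0.53 for Flt4 over Kdr, 0.24 for Flt1 over Kdr and 0.12 for Ptprb over Tek, without ND1_cKO replicate 2 that of Flt1 over Kdr was 0.78, and without control replicate 2 that of Angpt2 over Angpt1 was 0.49.

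**Figure D4:**
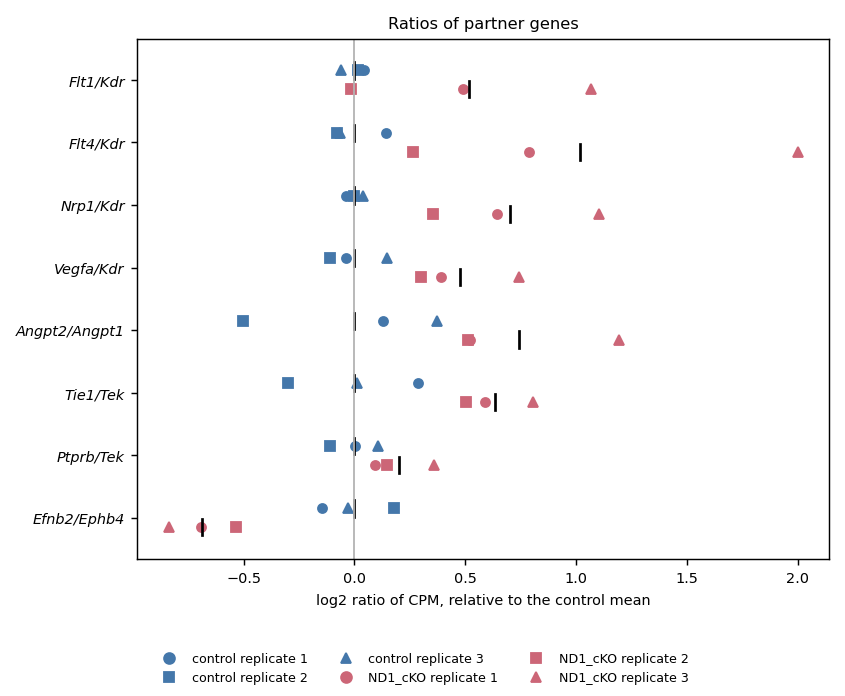
Log2 ratio of the CPM of partner genes (x axis, set to 0 at the control mean) for 8 pairs, with 1 point per library and a short black line at each genotype mean. The Efnb2/Ephb4 ratio is lower in all ND1_cKO libraries, the ratios to Kdr are highest in ND1_cKO replicate 3, and Ptprb/Tek and Flt1/Kdr overlap between genotypes.

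For each of the 4 genes that fell, the genes with the most similar course over the 6 libraries were sought among 11717 genes with at least 5 CPM. Likeness was the root mean square difference of log2 CPM centred on the mean of the libraries. Nearest to Tek were Clec14a, an endothelial surface lectin (0.0412), Ushbp1 (0.0586) and Gimap7 (0.0736). Flt1 lay closest to Prickle2 (0.0369), Wscd1 (0.0538) and the BMP receptor gene Bmpr2 (0.0595). Ptprb was followed by Tppp3 (0.0705), Zfp365 (0.0826) and Sema6a (0.0846). The neighbours of Efnb2 were the serotonin transporter gene Slc6a4 (0.0862), the cytokine gene Il33 (0.0926) and Smad6, an inhibitor of BMP signalling (0.103). All 12 were themselves called lower. Most of each course is the difference between genotypes, so these likenesses rest on it.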

How the data were processed

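Whole-lung RNA of 3 control and 3 ND1_cKO rats was measured. The authors deposited whole-number read counts per gene symbol, and each column was assigned by the column name in the sample's description (0 had no sample). The submitters' processing notes name R 4.3.3, DESeq2, HTSeq, HISAT2 and fastp without saying what each did. Genome build, annotation and strand setting: not given in the sources used here. Per the series description each library is a separate animal. The edgeR p-values therefore weigh the difference between genotypes against the spread between animals, which was estimated for each gene partly from all genes.

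Genes were tested with edgeR 4.0.16 (quasi-likelihood F test, robust, two-sided, TMM, filterByExpr, 16548 genes) and Benjamini-Hochberg adjustment over all of them. Standard errors were obtained from the fold change and its F statistic. Log2 levels used a prior count of 2. No pair of libraries agreed within sampling noise (chi-square per degree of freedom at least 23.7). Alternatives used DESeq2 1.42.0 and limma 3.58.1. The fits were tested on simulated data. The 10 genes and all lists were chosen with earlier results of these data known. All 10 genes were named, with fixed members of the pathway list, every member called, and 3 neighbours per called gene; other genes were named after their values were seen.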

Additional observations from a re-analysis of the deposited data

How the results depend on the processing

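All 10 genes kept the sign of their log2 fold change in the 15 alternatives. With a library left out, between 0 and 495 genes were called in all, between 0 and 5 of the 10 genes were lower and 0 were higher, and of the other pathway genes between 0 and 5 were lower and between 0 and 2 higher. DESeq2 called 1895 genes in all, 7 of the 10, and 12 pathway genes lower and 7 higher. With library weights the numbers were 964, 5, 9 and 3, and without a filter on low counts 1 pathway gene was higher. Of the 16 other pathway genes refitted one by one, 3 changed sign when a library was left out: Nrp2 ranged from -0.011 to 0.12, Klf2 from -0.64 to 0.12 and Nos3 from -0.16 to 0.47; the cause was not tested. All 8 ratios kept their direction, as did 8 of the 10 values relative to markers (Nrp1 ranged from -0.11 to 0.18 and Tie1 from -0.05 to 0.17). Their shifts stayed within the larger of the SDs of the genotypes, which for the ratios to Kdr is that of ND1_cKO. Kdr ranged from -0.99 to -0.32 relative to markers, and Flt4 over Kdr from 0.53 to 1.39.

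Replicate numbers are shared by the genotypes, but nothing ties equal numbers to a litter or day. Same-numbered libraries deviated together with correlations of 0.17, 0.02 and 0.13 across genes, each library correlating best with its own number, which is a hint from the data only. With the replicate block, 262 genes were called, 3 of the 10 (Flt1 was at adjusted p = 0.0503), and 2 pathway genes lower and 1 higher. At 244 or more counts per library for each of the 10 genes, spread between 3 animals and not depth limits the precision.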

Other observations

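Within ND1_cKO, several vessel and epithelial genes shared an order over the animals, which is also their order on the first principal component of all genes (13.7, 25.3 and 65.2 in replicates 2, 1 and 3). They were picked after their values were seen, and 3 animals allow no test. Kdr was at 433, 317 and 204 CPM in replicates 2, 1 and 3, and Nrp1 at 424, 378 and 335 CPM. Vegfa followed the same order at 450.2, 350.1 and 287 CPM, as did Dll4 at 61.9, 55.2 and 33.4 CPM and Esm1, an endothelial proteoglycan gene induced by VEGF, at 13.3, 10.6 and 4.83 CPM. Plvap, a protein of capillary fenestrae, gave 575, 500.1 and 299 CPM, and the alveolar type 1 genes Ager and Rtkn2 gave 1514, 1180 and 857 CPM and 223, 156 and 88.7 CPM. Flt1, at 206, 214 and 206 CPM, and Efnb2, at 185, 166 and 193 CPM, did not follow it, nor did Tek (275, 309 and 207 CPM), Ptprb (528, 572 and 461 CPM) or Tie1 (163, 194 and 151 CPM). Flt4 (22.8, 24.0 and 35.8 CPM), Angpt1 (50.1, 71.4 and 71.5 CPM) and Angpt2 (7.82, 11.2 and 18.0 CPM) ran the other way. Esm1 also had the most negative log2 fold change of the pathway list, -2.27 ± 0.44 (adjusted p = 0.0539), without passing.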
